A study of Mus musculus with 32 samples.

Results

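The genes described here encode 10 enzymes of kynurenine and NAD synthesis, namely Afmid, Kmo, Kynu, Haao, Acmsd, Qprt, Nmnat1, Nadsyn1, Naprt and Nampt, among 54532 genes counted in mouse kidney. They were picked by gene name, and Kynu was included because measured values in these same libraries had shown a different response in male and female mice, so the values of Kynu are given as a description with no test. The other 9 genes are further enzymes of the same synthesis, and other genes of the wider pathway are followed in a later paragraph. Whole kidneys of wild-type C57BL/6 mice, 6 to 8 weeks old at purchase, were profiled by paired-end 150 bp RNA sequencing in 8 groups of 4 mice. These were male and female mice at Day 0, before any dose, and male and female mice at Day 2, Day 3 and Day 5 after 1 intraperitoneal injection of 20 mg/kg cisplatin, a platinum drug that injures the kidney tubule. The labels of the Day 0 females name cisplatin and those of the Day 0 males name no treatment, and the study describes Day 0 animals as healthy, which was followed here. The comparisons address how cisplatin-induced acute kidney injury (cisplatin-AKI) changes these transcripts over time, and whether male and female mice differ.

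NAD is made in the kidney by 3 routes. In the de novo route, tryptophan is opened to N-formylkynurenine, which Afmid (arylformamidase) turns into kynurenine, Kmo (kynurenine 3-monooxygenase) hydroxylates kynurenine, Kynu (kynureninase) cleaves the product to 3-hydroxyanthranilate, and Haao (3-hydroxyanthranilate dioxygenase) opens its ring to an unstable semialdehyde. That semialdehyde either closes by itself to quinolinate, which Qprt (quinolinate phosphoribosyltransferase) commits to NAD, or is drawn off by Acmsd (aminocarboxymuconate semialdehyde decarboxylase) towards oxidation. Nmnat1 and Nadsyn1 carry out the last steps to NAD, Naprt admits nicotinate from the diet, and Nampt (nicotinamide phosphoribosyltransferase) salvages the nicotinamide that NAD-consuming enzymes release. The kidney, above all its proximal tubule, is known as a site of high activity of the de novo route.

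All 10 genes are annotated as protein-coding in the deposited table, with positions that match GRCm38. Acmsd (ENSMUSG00000026348) lies on the plus strand of chromosome 1 from 127729413 to 127767978, and Kmo (ENSMUSG00000039783) lies on the same chromosome and strand from 175620381 to 175662116. Haao (ENSMUSG00000000673) is on the minus strand of chromosome 17 from 83831356 to 83846790. Qprt (ENSMUSG00000030674) and Nadsyn1 (ENSMUSG00000031090) are both on the minus strand of chromosome 7, from 127107114 to 127122226 and from 143795584 to 143822849. Kynu (ENSMUSG00000026866) is on the plus strand of chromosome 2 from 43555329 to 43682715, and Nampt (ENSMUSG00000020572) is on the plus strand of chromosome 12 from 32819545 to 32853349. Afmid (ENSMUSG00000017718) lies on the plus strand of chromosome 11 from 117825924 to 117839908, Nmnat1 (ENSMUSG00000028992) on the minus strand of chromosome 4 from 149467572 to 149485202, and Naprt (ENSMUSG00000022574) on the minus strand of chromosome 15 from 75890956 to 75894481. In the GENCODE annotation of GRCm38, Naprt shares 277 of its 2344 exon bases with Eef1d on the same strand, which held 543 to 8115 counts per library, and Afmid shares 1566 of 3539 exon bases with the readthrough gene Gm20708, which was counted at 0 throughout. Reads in those shared bases cannot be assigned to 1 gene with certainty.

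The 250 bases before the RefSeq start site are printed for Haao, Qprt and Nampt, which all differed from Day 0 in male mice at Day 3, Haao and Qprt downwards and Nampt upwards. Sequences are from RefSeq on GRCm38.p6 and run 5′ to 3′ on the strand of the gene. The RefSeq start of Haao is the start of the gene in the deposited table, whereas those of Qprt and Nampt lie inside the gene as positioned there, so that the stretch of Nampt falls wholly, and that of Qprt mostly, within the deposited gene. Capitals mark AGGTCA or its reverse complement TGACCT, the motif of many nuclear receptors.
Haao, chr17:83846791-83847040, minus strand: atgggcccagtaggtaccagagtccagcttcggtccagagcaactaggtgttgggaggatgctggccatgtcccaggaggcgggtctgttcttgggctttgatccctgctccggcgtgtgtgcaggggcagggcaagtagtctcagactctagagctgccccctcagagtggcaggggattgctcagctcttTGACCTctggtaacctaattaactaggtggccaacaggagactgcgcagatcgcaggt
Qprt, chr7:127122030-127122279, minus strand: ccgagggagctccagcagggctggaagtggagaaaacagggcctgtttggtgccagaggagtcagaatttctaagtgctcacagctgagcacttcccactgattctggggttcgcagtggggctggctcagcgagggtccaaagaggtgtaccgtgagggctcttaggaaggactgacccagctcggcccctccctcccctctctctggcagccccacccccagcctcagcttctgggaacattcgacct
Nampt, chr12:32820085-32820334, plus strand: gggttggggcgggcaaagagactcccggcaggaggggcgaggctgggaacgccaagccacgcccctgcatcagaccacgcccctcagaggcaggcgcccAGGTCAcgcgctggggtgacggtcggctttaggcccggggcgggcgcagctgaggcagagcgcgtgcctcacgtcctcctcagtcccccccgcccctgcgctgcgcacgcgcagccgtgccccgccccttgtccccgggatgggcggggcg
Promoter sequence was examined for 7 of the 10 genes, all but Kynu, Naprt and Acmsd. AGGTCA on either strand was found in 2 of these 7 (Haao and Nampt) and in 14% of 32851 mouse promoters of the same length. The TATA box letters TATAAA (12.4% of all promoters), the E-box CACGTG (6.02%) and the cyclic AMP response element TGACGTCA (1.55%) were in none of the 7, and the HNF1 motif GTTAAT was in Haao (6.43% of all promoters), each searched on both strands with no overlap between the motifs searched. The Nampt promoter held 27 CpG dinucleotides and 75.6% G and C, against 6 CpG in Haao, 6 CpG in Qprt and a median of 6 CpG over all promoters. These matches describe letters only and are not binding sites.

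The libraries held between 16502107 and 35961325 counts, and each of the 12 proximal tubule markers examined was detected in all 32 libraries, as the tissue label requires. Some libraries stood apart. Xist, a transcript of the inactive X chromosome, was at 4153 counts in the library labelled male Day 5 mouse 1 and at 0 to 260 counts in the other 15 male libraries, and that library also held 387 counts of Y-linked genes, against 447 to 3195 in those 15. Transcripts of the mitochondrial genome made up 78.9% to 79.8% of counts in the other 3 male Day 5 libraries and 77.9% in female Day 5 mouse 2. They made up 42.5% in the library labelled male Day 5 mouse 1 and 31.6% in female Day 5 mouse 1. The 24 libraries of Day 0, Day 2 and Day 3 held 4.49% to 23.97%. Hepatocyte transcripts made up 1.12% of counts in female Day 0 mouse 2 and 0.0536% in female Day 3 mouse 2, and at most 0.0351% in the other 30 libraries. All 4 female Day 0 libraries held 5 to 221 Y-linked counts, and no other female library held any. Xist was also at 242 counts in male Day 0 mouse 4, which had the highest Kynu of its group, and at 260 in male Day 5 mouse 2, against 0 to 5 in the 8 male libraries of Day 2 and Day 3. Such counts go against the sex labels to an extent that differed between libraries of Day 0 and Day 5. Whether RNA was mixed or exchanged between the sexes was not tested. All values of the library labelled male Day 5 mouse 1 and the comparison of the sexes at Day 0 are therefore given as labelled. Day 0 mouse 4 had the highest mitochondrial share of its group in both sexes (23.97% in males, 19.7% in females), together with the lowest sum of thick ascending limb markers, the lowest Haao and Naprt and the highest Kynu. Main results that moved when the hepatocyte-rich libraries, female Day 5 mouse 2, female Day 0 mouse 4 or the library labelled male Day 5 mouse 1 were left out are also given without them.

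At Day 0 the 10 genes spanned a wide range of levels, compared here per length as FPKM (the count scaled by gene length and library size, as deposited) over the 8 Day 0 mice of both sexes. Haao was the most abundant at 178 ± 49.1 FPKM (SD, n = 8), and its lowest mouse (119.8) was above the highest mouse of any other gene on the list. Acmsd followed at 45.6 ± 13.5, Qprt at 35.2 ± 3.90 and Naprt at 30.8 ± 15.7, and the ranges of these 3 overlapped. Kmo was at 19.0 ± 3.38 and Nampt at 16.7 ± 2.09, again with overlapping ranges. Nadsyn1 at 5.47 ± 1.97, Nmnat1 at 5.34 ± 0.794 and Afmid at 3.84 ± 1.69 formed a lower tier whose ranges overlapped one another. Kynu had the lowest mean, 2.86 ± 2.72, and was the only one of the 10 whose male and female libraries did not overlap at Day 0. By counts scaled to library size, 463 of all 16042 genes tested lay wholly higher in males at Day 0 and 483 wholly lower. Kynu had been picked on values that include these Day 0 libraries. Its male mice were at 0.506 ± 0.209 FPKM (n = 4) and its female mice at 5.22 ± 1.55 (n = 4).

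Kynu, which cleaves 3-hydroxykynurenine, followed different courses in male and female mice, and this was the reason for its choice. Values from here on are CPM, the count scaled to library size with TMM factors over the 32 libraries. In male mice it read 2.72, 2.15, 2.59 and 5.00 CPM at Day 0 and 6.01, 18.9, 15.4 and 12.3 at Day 2. It was at 16.5, 16.6, 17.6 and 18.9 CPM in male mice at Day 3, all above the highest Day 0 male. Male Day 5 libraries held 24.1, 3.80, 2.78 and 1.48 CPM, the first being the library labelled male Day 5 mouse 1. The other 3 male Day 5 libraries were therefore back within or near the Day 0 range, on 11 to 27 counts each.

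**Figure D1:**
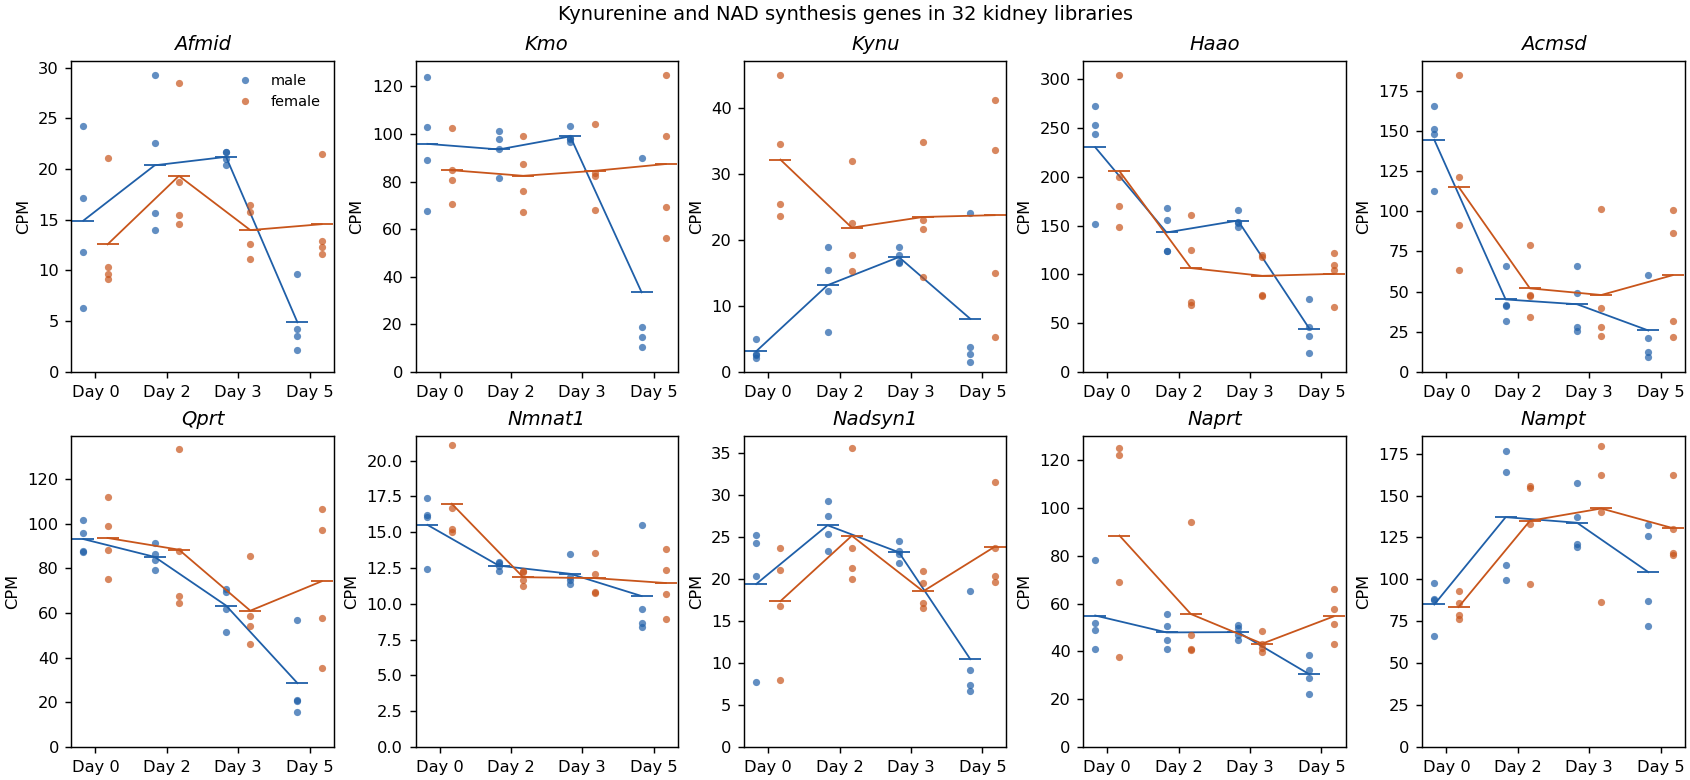
CPM of each of the 10 genes (y axis, from 0) by day (x axis) in male (blue) and female (orange) mice, with 1 point per library and a bar at the mean of each group of 4, joined by lines. Kynu is low in male Day 0 mice (2.15 to 5.00 CPM) and high in female Day 0 mice (23.7 to 44.9 CPM). Acmsd is lower than at Day 0 in all 12 libraries labelled as cisplatin-treated males.

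Female mice started higher, at 23.7, 34.6, 25.4 and 44.9 CPM of Kynu at Day 0. They read 22.6, 17.7, 15.3 and 31.9 CPM at Day 2 and 14.3, 34.9, 21.6 and 23.0 CPM at Day 3. At Day 5 they spread from 5.21 to 41.2 CPM, the lowest being female Day 5 mouse 2 with its high mitochondrial share, without which the log2 fold change at Day 5 was -0.12 (SE 0.36). The female groups overlapped with Day 0 at every day, while the male groups did not at Day 2 and Day 3. As log2 fold changes against Day 0, the male values were 2.05 (SE 0.40), 2.46 (SE 0.27) and 1.47 (SE 0.77) at Day 2, Day 3 and Day 5, and the female values were -0.61 (SE 0.29), -0.51 (SE 0.29) and -0.46 (SE 0.50). Without the pair of libraries richest in hepatocyte transcripts the female values were -0.55, -0.72 and -0.41. Male mice were 10.3-fold below female mice at Day 0, and the ranges of the sexes overlapped at Day 2, Day 3 and Day 5. On the log2 scale the male response exceeded the female response by 2.64 at Day 2, 2.94 at Day 3 and 1.92 at Day 5, and the Day 5 value was 0.32 without the library labelled male Day 5 mouse 1. Without that library the male Day 5 log2 fold change of Kynu was -0.10 (SE 0.49).

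The protein-coding gene whose profile over the 8 groups was nearest to that of Kynu was Rrh, an opsin-family gene, with a root mean square difference of 0.376 in centred mean log2 CPM, among the protein-coding ones of 18220 genes that passed the count filter. Next came Cpb2, a carboxypeptidase gene, at 0.423, Naaladl1, a peptidase gene, at 0.435, Rdh16f2, of the retinol dehydrogenase family, at 0.435, and Mro at 0.458. Like Kynu, all 5 had lower means in male than in female mice at Day 0, and higher means in male mice at Day 2 and Day 3 than at Day 0. The male Day 0 means of Cpb2, Naaladl1 and Mro were near the floor (-1.68, -2.35 and -2.50 log2 CPM). Cpb2 was highest at female Day 0 and Day 3 (1.47 and 1.36), the groups with the libraries richest in hepatocyte transcripts. The part of those libraries was not tested. The comparison with Kynu is a description of 8 group means, and these genes were selected for their likeness.

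**Figure D2:**
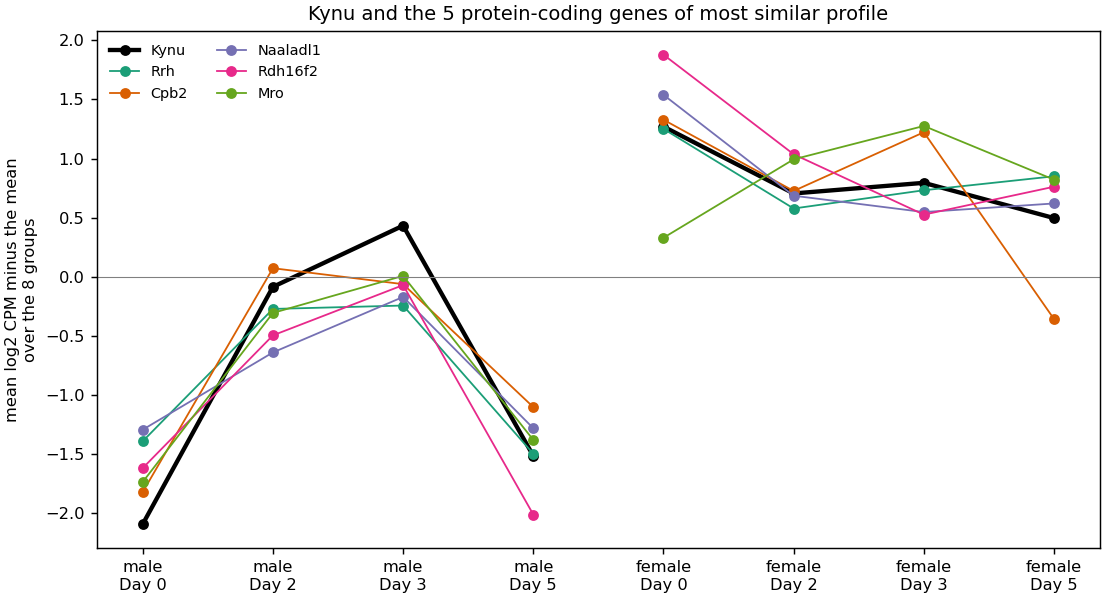
Mean log2 CPM of each group minus the gene's mean over the 8 groups (y axis) for Kynu (thick black line) and the 5 protein-coding genes nearest to it, by group (x axis, male then female mice, Day 0 to Day 5), with 4 libraries per group. In male mice Kynu goes from the lowest of the 6 curves at Day 0 to the highest at Day 3, and the curves of all 6 genes are higher in female than in male mice at Day 0.

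A gene is said to be called where the edgeR adjusted p was under 0.05, unless another tool is named. Groups that do not overlap, here and for Kynu above, are to be read beside all genes tested. The numbers wholly above and wholly below Day 0 were 2104 and 1728 of 16051 at male Day 2. They were 3458 and 2577 of 15908 at male Day 3, and 1562 and 2476 of 14969 at male Day 5. In females they were 1579 and 1008 of 16541, 1881 and 1455 of 17065, and 799 and 579 of 16260, in the same order of days. All of the other 9 genes passed the count filter in every comparison. In males Acmsd, the enzyme that draws substrate away from NAD synthesis, was the only one of them called lower at all 3 days. Its male libraries read 148, 151, 113 and 166 CPM at Day 0 and 65.8, 41.0, 41.9 and 31.8 at Day 2. They read 25.7, 49.1, 28.1 and 65.7 CPM at Day 3 and 60.3, 20.9, 9.27 and 12.7 at Day 5. Each of the 12 treated libraries labelled male, among them the library labelled male Day 5 mouse 1, was below each Day 0 male. The log2 fold change of Acmsd was -1.70 (SE 0.23) at Day 2, -1.80 (SE 0.30) at Day 3 and -2.40 (SE 0.52) at Day 5, with adjusted p = 0.021, 0.0087 and 0.016 by the edgeR quasi-likelihood test, adjusted by Benjamini-Hochberg over all genes tested. The Day 2 call was lost without male Day 0 mouse 1 or 2 or without male Day 2 mouse 2, 3 or 4 (edgeR adjusted p up to 0.107), and the Day 5 call without male Day 5 mouse 2 or 4 (0.060 and 0.051), while the Day 3 call held in all 8 such fits. In female mice Acmsd read 121, 91.6, 63.6 and 185 CPM at Day 0, and 47.2, 47.9, 34.0 and 79.1 at Day 2. Female Day 3 libraries read 22.5, 102, 39.7 and 27.9 CPM and female Day 5 libraries 21.96, 31.7, 86.6 and 101. The female groups overlapped with Day 0 at each day, with log2 fold changes of -1.20 (SE 0.35), -1.32 (SE 0.50) and -0.95 (SE 0.48) and edgeR adjusted p = 0.077, 0.11 and 0.36. Without female Day 3 mouse 2, which held the 102 CPM and is rich in hepatocyte transcripts, the female Day 3 fall was -1.98 (SE 0.38) and was called (edgeR adjusted p = 0.038). With female Day 0 mouse 2 left out as well it was -2.08 (SE 0.41, adjusted p = 0.080), and leaving out female Day 5 mouse 2 gave -0.74 at Day 5 (SE 0.52, adjusted p = 0.57). The difference between the sexes in this response was itself not called at any day (edgeR adjusted p of the interaction 0.9999, 0.97 and 0.38 at Day 2, Day 3 and Day 5).

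Haao, which forms the semialdehyde that Acmsd and Qprt compete for, was also lower after cisplatin. Male Haao read 243, 253, 272 and 152 CPM at Day 0, 124, 155, 168 and 124 at Day 2, and 153, 166, 149 and 152 at Day 3. It read 75.2, 37.2, 19.2 and 45.9 CPM in male Day 5 libraries, all below the lowest Day 0 male. The Day 2 and Day 3 male groups overlapped with Day 0 only through male Day 0 mouse 4. Haao was called lower in males at Day 3 (log2 fold change -0.60, SE 0.18, edgeR adjusted p = 0.046) and at Day 5 (-2.30, SE 0.39, adjusted p = 0.0097), and not at Day 2 (-0.71, SE 0.21, adjusted p = 0.080). The Day 3 call held without male Day 0 mouse 3 or 4 and was lost without any of the other 6 mice (edgeR adjusted p = 0.083 to 0.125), while the Day 5 call held in all 8 such fits. In 1 fit over the 8 groups the Day 3 call was lost (edgeR adjusted p = 0.16). Female Haao read 200, 304, 171 and 148 CPM at Day 0 and 77.9, 120, 78.7 and 117 at Day 3, and these groups did not overlap. The female Day 3 fall was called (-1.12, SE 0.27, edgeR adjusted p = 0.0495), but not without the 2 libraries richest in hepatocyte transcripts (-0.96, adjusted p = 0.14), and of the 8 fits that left out 1 mouse it was called only in that without female Day 0 mouse 4 (adjusted p = 0.0069, against 0.072 to 0.168 in the other 7). Female Haao was at 161, 68.6, 71.4 and 124 CPM at Day 2 (-1.002, SE 0.35, edgeR adjusted p = 0.11) and at 105, 66.4, 121 and 109 CPM at Day 5 (-1.05, SE 0.29, adjusted p = 0.17), neither of which was called. Leaving out female Day 5 mouse 2 gave -0.90 (SE 0.29, edgeR adjusted p = 0.31).

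Qprt, which takes quinolinate into NAD synthesis, was near its Day 0 level at Day 2 and lower later in male mice. Male Qprt read 102, 95.7, 87.3 and 87.9 CPM at Day 0, 83.7, 79.3, 86.4 and 91.4 at Day 2, and 51.5, 69.2, 61.8 and 71.0 at Day 3. Male Day 5 libraries read 57.0, 21.1, 15.8 and 20.5 CPM, the first again the library labelled male Day 5 mouse 1. The Day 3 and Day 5 male groups lay wholly below Day 0, and Qprt was called lower at both days (log2 fold change -0.58, SE 0.12, and -1.62, SE 0.36, edgeR adjusted p = 0.015 and 0.018). In female mice Qprt read 99.1, 112, 88.4 and 75.2 CPM at Day 0 and 46.2, 85.4, 58.5 and 54.2 at Day 3, with overlap and without a call (-0.67, SE 0.22, edgeR adjusted p = 0.081). Female Qprt at Day 2 (64.5 to 133 CPM) and Day 5 (35.4 to 107 CPM) overlapped with Day 0. At male Day 3 the call was lost in 1 fit over the 8 groups (edgeR adjusted p = 0.18) and without male Day 3 mouse 3 (0.063), and at male Day 5 with male Day 0 mouse 1 or 2, or any of male Day 5 mice 2, 3 and 4, left out (0.050 to 0.063).

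**Figure D3:**
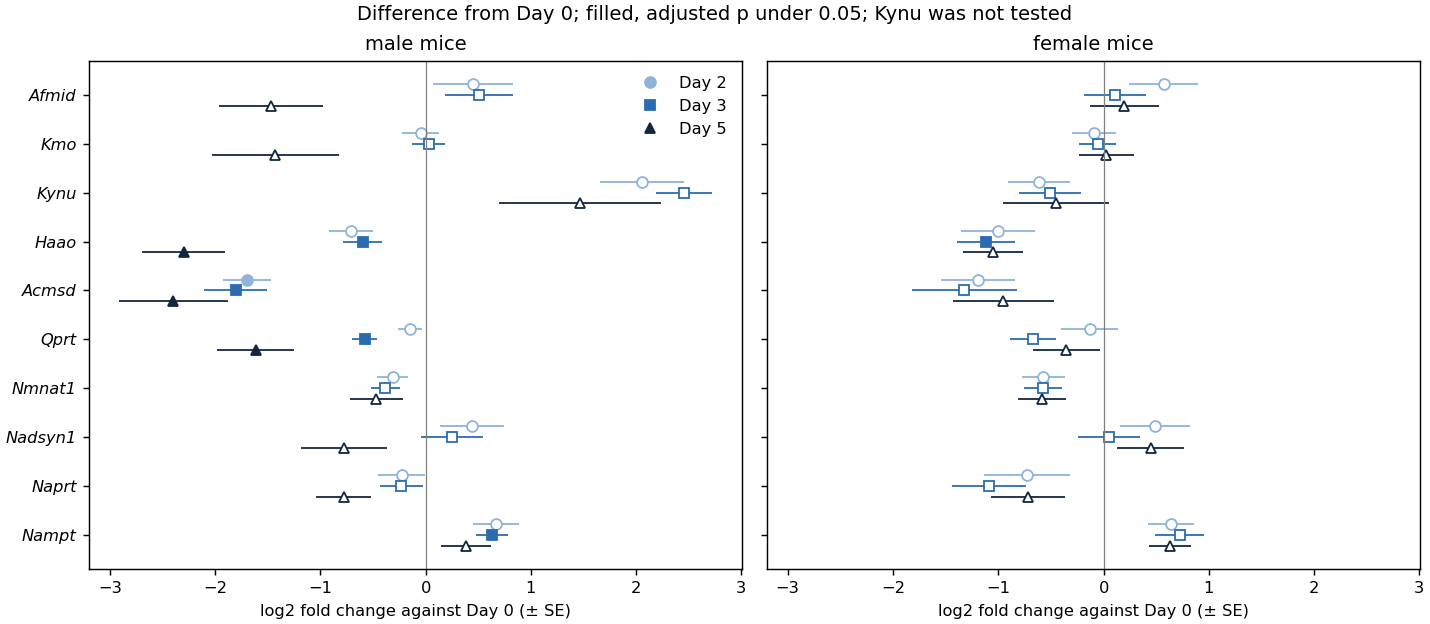
Log2 fold change against Day 0 with its SE (x axis) for the 10 genes in pathway order (y axis), in male mice (left) and female mice (right), at Day 2 (circles), Day 3 (squares) and Day 5 (triangles), with 4 mice per group; filled symbols had an edgeR adjusted p under 0.05, and Kynu was not tested. Acmsd is filled at all 3 days in males (-1.70, -1.80 and -2.40), and the single filled symbol in females is Haao at Day 3 (-1.12).

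Because Acmsd and Qprt act on the same branch, their counts were compared within each library, which does not depend on the library's total. The log2 ratio of Acmsd to Qprt counts was 0.62 ± 0.23 (SD, n = 4) in male Day 0 mice, and -0.97 ± 0.48, -0.69 ± 0.47 and -0.35 ± 0.44 at Day 2, Day 3 and Day 5. All 12 treated libraries labelled male, among them the library labelled male Day 5 mouse 1 (0.08), were below all 4 Day 0 males. The differences of -1.59, -1.31 and -0.97 had an exact permutation p of 0.0286 each, two-sided, which is the smallest that 4 mice against 4 allow, and 0.0571 after adjustment over the 6 comparisons, so none passed. In female mice the log2 ratio was 0.21 ± 0.80 at Day 0 and -0.77 ± 0.60, -0.58 ± 0.59 and -0.45 ± 0.64 later. The female groups overlapped, with differences of -0.98, -0.78 and -0.66 and adjusted exact permutation p = 0.171, 0.171 and 0.314.

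**Figure D4:**
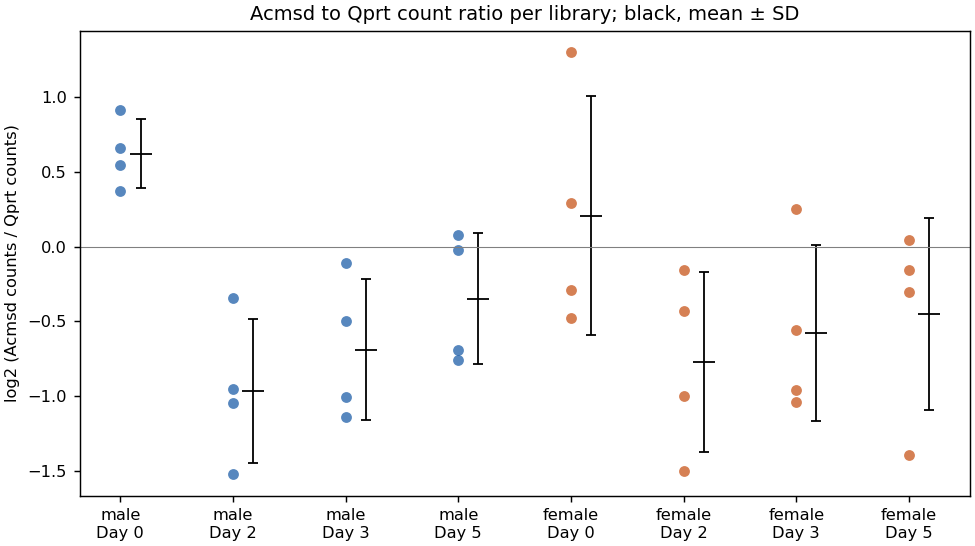
Log2 of Acmsd counts over Qprt counts (y axis) in each library (points; blue male, orange female) by group (x axis), with the mean ± SD of 4 mice in black. All 4 male Day 0 libraries lie above 0, between 0.37 and 0.91, and above the 12 later male libraries, while female Day 0 libraries spread from -0.47 to 1.30.

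Upstream of the branch, Kmo kept to its Day 0 level through Day 3. Male Kmo read 124, 103, 67.4 and 88.9 CPM at Day 0, 81.4 to 101 at Day 2 and 96.8 to 103 at Day 3, with log2 fold changes of -0.05 (SE 0.18) and 0.03 (SE 0.16). Male Day 5 libraries read 89.9, 19.0, 14.7 and 10.3 CPM, so that only the library labelled male Day 5 mouse 1 was within the Day 0 range (-1.43, SE 0.60, edgeR adjusted p = 0.12). Female Kmo read 70.6 to 103 CPM at Day 0, 67.1 to 99.0 at Day 2, 67.9 to 104 at Day 3 and 56.5 to 125 at Day 5, with log2 fold changes between -0.09 and 0.03.

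Afmid, which forms kynurenine, varied widely among male Day 0 mice. Its male libraries read 24.3, 17.2, 6.32 and 11.8 CPM at Day 0, and 21.02, 20.4, 21.7 and 21.7 at Day 3, a range narrower than and inside that of Day 0. Male Day 5 libraries read 9.65, 4.23, 2.16 and 3.51 CPM, and the fall was not called (log2 fold change -1.47, SE 0.49, edgeR adjusted p = 0.063). Female Afmid had a single high mouse at Day 0 (9.14, 10.4, 9.68 and 21.1 CPM) and at Day 5 (12.9, 12.4, 11.6 and 21.4 CPM). None of its 6 comparisons with Day 0 was called.

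Nampt, the salvage enzyme, was the only one of the 9 genes called higher than Day 0 with all mice kept. Male Nampt read 97.8, 87.9, 88.2 and 66.1 CPM at Day 0, 109, 164, 177 and 99.4 at Day 2, and 158, 121, 137 and 119 at Day 3. Both later groups lay above Day 0, and Day 3 was called (log2 fold change 0.63, SE 0.15, edgeR adjusted p = 0.023) while Day 2 was not (0.67, SE 0.22, adjusted p = 0.093). Female Nampt read 76.1, 78.8, 85.7 and 93.2 CPM at Day 0, 97.2, 154, 156 and 133 at Day 2, and 140, 86.6, 162 and 180 at Day 3. Female Day 5 libraries were at 162, 115, 116 and 130 CPM. The female Day 2 and Day 5 groups also lay above Day 0, and Day 3 overlapped with it through female Day 3 mouse 2. The female log2 fold changes of 0.64, 0.72 and 0.63 (SE 0.22, 0.23 and 0.20) were not called (edgeR adjusted p = 0.11, 0.080 and 0.20), but the Day 3 rise was called without female Day 3 mouse 2 (0.91, SE 0.17, adjusted p = 0.033). At Day 5 male Nampt ranged from 71.9 to 133 CPM and overlapped with Day 0 (0.38, SE 0.24, edgeR adjusted p = 0.28), although Haao, Acmsd and Qprt of the same libraries lay below their Day 0 ranges. The male Day 3 call was lost when male Day 0 mouse 2, or any of male Day 3 mice 1, 2 and 3, was left out (edgeR adjusted p = 0.052 to 0.075), and held in 1 fit over the 8 groups (0.047).

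Of the last-step enzymes, Nmnat1 was a little lower after cisplatin in both sexes without a call. It read 12.4 to 17.4 CPM in male Day 0 mice and 11.3 to 13.5 at Day 3 (log2 fold change -0.38, SE 0.14, edgeR adjusted p = 0.068). Female Nmnat1 read 15.0 to 21.1 CPM at Day 0 and 8.97 to 13.8 over the 12 treated females, which did not overlap with Day 0 at any day. Of all genes tested, 1008 of 16541, 1455 of 17065 and 579 of 16260 lay wholly below Day 0 at these days. Nmnat1 was not called at any of them. Its female log2 fold changes were -0.57, -0.58 and -0.58 (edgeR adjusted p = 0.12, 0.076 and 0.27). Nadsyn1 had a low library at Day 0 in each sex, mouse 3, at 7.70 CPM in males and 7.96 in females, against 16.7 to 25.2 in the other 6 Day 0 mice. None of its comparisons with Day 0 was called. Naprt, of the nicotinate route, read 37.6, 69.2, 122 and 125 CPM in female Day 0 mice and 39.9 to 48.7 CPM at Day 3 (-1.09, SE 0.35, edgeR adjusted p = 0.081). Male Naprt read 40.8 to 78.4 CPM at Day 0 and 21.9 to 38.4 at Day 5, which did not overlap (-0.78, SE 0.26, edgeR adjusted p = 0.063).

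Counted over the 9 tested genes, 1 was called at male Day 2 (lower), against 1.35% of all genes tested called lower and 1.81% called higher. At male Day 3, 3 were called lower and 1 higher, where 13.1% of all genes were called lower and 11.4% higher. At male Day 5, 3 were called lower and none higher, where 10.2% of all genes were called lower and 8.98% higher, and the median log2 fold change of the 9 was -1.43 against 0.04 over all genes. In female mice none of the 9 was called at Day 2 (1.16% of all genes lower, 0.774% higher), 1 was called lower at Day 3 (4.28% lower, 1.26% higher) and none at Day 5 (0.0738% lower, 0.185% higher). The female counts of 0 go with 4 genes at an unadjusted p under 0.05 at Day 2 and 3 at Day 5 in edgeR, and with 1 gene called at each of these days by DESeq2. Comparisons within a sex share the Day 0 mice.

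More female calls appeared when single libraries were left out, most of them without female Day 0 mouse 4. Without it 4 of the 9 genes were called at Day 2, 5 at Day 3 and 3 at Day 5. The shares of all genes called in these fits are not given here, so these counts are not set against all genes. Nampt was then called higher at all 3 days (log2 fold change 0.69, 0.78 and 0.69, edgeR adjusted p = 0.038, 0.036 and 0.048), and Haao lower at all 3 (-1.13, -1.25 and -1.18, adjusted p = 0.033, 0.0069 and 0.023). Naprt was called lower at Day 3 (-1.34, edgeR adjusted p = 0.0028) and Day 5 (-0.96, adjusted p = 0.031), Nmnat1 lower at Day 2 (-0.62, adjusted p = 0.042) and Day 3 (-0.63, adjusted p = 0.022), Qprt lower at Day 3 (-0.77, adjusted p = 0.0199) and Afmid higher at Day 2 (0.94, adjusted p = 0.027). Beside these, the Acmsd and Nampt calls at Day 3 without female Day 3 mouse 2 were the only female calls gained by leaving out 1 mouse. Female Day 0 mouse 4 held the highest Acmsd (185 CPM) and the lowest Haao, Naprt and Qprt of its group, with 19.7% of its counts mitochondrial against 4.49% to 10.1% in the other 3, and its part in the result was not tested beyond leaving it out.

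The male Day 5 result moved with markers of the proximal tubule. The summed level of the 12 proximal tubule markers was 12580 to 15665 CPM in male Day 0 mice, 7110 in the library labelled male Day 5 mouse 1 and 882 to 1730 in the other 3 male Day 5 libraries. Of these 12 markers 4 were called lower at male Day 5 and none higher, with a median log2 fold change of -1.94, and none of the 12 was at 0 in any library. At male Day 3, when Acmsd, Haao and Qprt were already lower, the sum was 9530 to 13722 CPM, 1 marker was called higher and 1 lower, and the median log2 fold change was -0.05. Beside the 11.4% of all genes called higher and 13.1% called lower at male Day 3, the other marker lists gave the following counts. Of the podocyte markers 2 of 4 were called higher (median log2 fold change 0.89, summed level 115 to 206 CPM at Day 0 and 304 to 361 at Day 3), of the adipocyte markers 2 of 4 lower (median -1.67, 74.4 to 558 and 68.1 to 85.1 CPM), and of the hepatocyte markers 2 of 4 tested lower, while 2 of 9 leukocyte markers (median -0.22) and 1 of 4 collecting duct markers (median -0.11) were called lower, shares nearer to that of all genes, and none of 4 thick ascending limb markers was called. Summed injured tubule markers were 11.1 to 14.6 CPM in male Day 0 mice, 17.1 to 127 at Day 2, 18.6 to 111 at Day 3 and 18.4 to 189 at Day 5, with 1 of 5 called higher at Day 3. In female mice they were 11.6 to 15.8 CPM at Day 0 and reached 376 CPM at Day 3, where all 4 mice were above Day 0 and 3 of 5 markers were called higher. The female proximal tubule sum was 11117 to 16737 CPM at Day 0, 5833 to 15696 at Day 2, 5342 to 12163 at Day 3 and 4255 to 11652 at Day 5. Summed leukocyte markers were 105 to 159 CPM in male Day 0 mice and 83.6 to 360 at male Day 5, where 2 of 9 were called higher and 1 lower. Summed collecting duct markers were 399 to 823 CPM in male Day 0 mice and 838 to 1536 at male Day 5, so that the groups did not overlap, and 2 of 4 were called higher, namely the water channel gene Aqp2 (log2 fold change 1.32, edgeR adjusted p = 0.042) and the proton pump subunit gene Atp6v1g3 (1.46, adjusted p = 0.023). The part of these shifts in the members' values was not tested, and in whole-kidney RNA fewer cells of a type and less RNA per cell cannot be told apart.

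**Figure D5:**
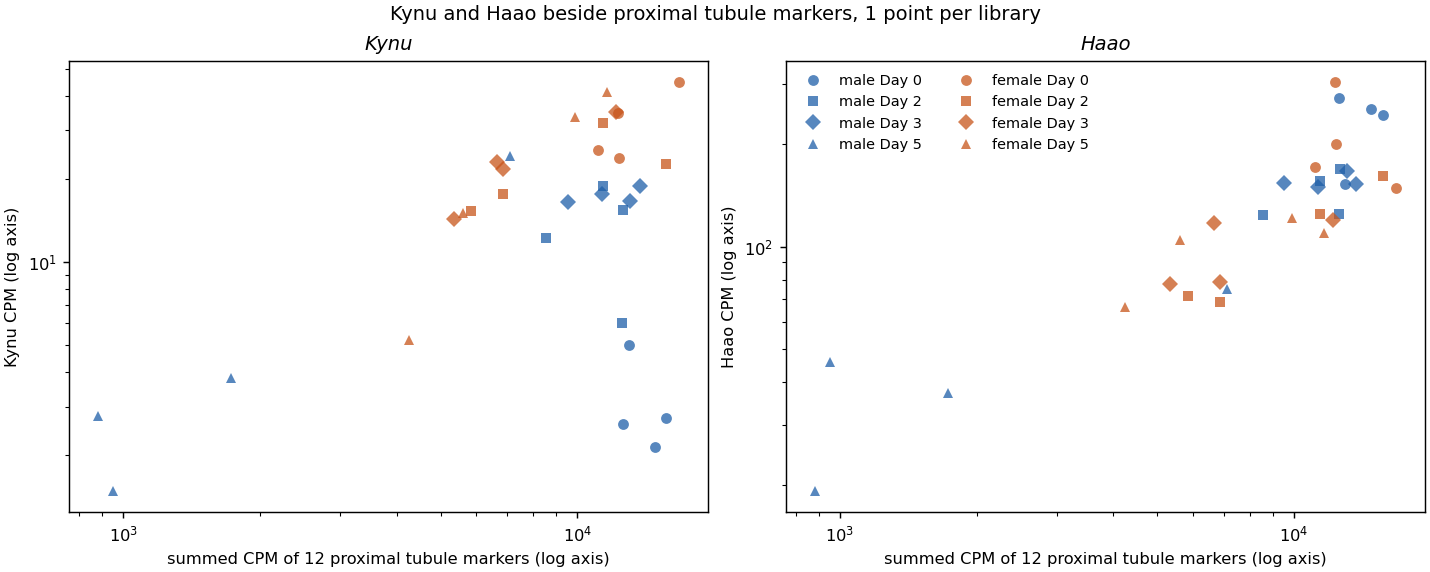
Kynu (left) and Haao (right) in CPM against the summed CPM of 12 proximal tubule markers, both on log axes, with 1 point per library (blue male, orange female; circles Day 0, squares Day 2, diamonds Day 3, triangles Day 5). The 3 male Day 5 libraries with marker sums of 882 to 1730 CPM hold the lowest Haao (19.2 to 45.9 CPM), and the 4 male Day 0 libraries hold 2.15 to 5.00 CPM of Kynu at marker sums of 12580 to 15665 CPM.

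Without the library labelled male Day 5 mouse 1, 7 of the 9 genes were called lower at male Day 5. The share of all genes called in that fit is not given here, so this count is not set against all genes. These were Acmsd (log2 fold change -3.22), Haao (-2.64), Kmo (-2.58), Qprt (-2.16), Afmid (-2.03), Nadsyn1 (-1.19) and Naprt (-0.88), with edgeR adjusted p from 0.000401 to 0.0499. The remaining 3 libraries were those with the highest mitochondrial shares and the lowest proximal tubule sums.

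Male and female mice were also compared directly at each day. None of the 9 genes was called at Day 0 (0.449% of all genes called), Day 2 (1.47%) or Day 5 (0.276%) in edgeR, with 0, 0 and 5 of them at an unadjusted p under 0.05 and 0, 0 and 3 called by DESeq2. At Day 3, 3 were called higher in male mice, where 10.6% of all genes were called higher in males and 10.7% lower. Afmid read 20.4 to 21.7 CPM in males against 11.1 to 16.4 in females (log2 difference 0.61, SE 0.12, edgeR adjusted p = 0.0083). Haao read 149 to 166 CPM in males against 77.9 to 120 in females (0.66, SE 0.15, adjusted p = 0.015). Nadsyn1 read 21.8 to 24.5 CPM in males against 16.5 to 20.9 in females (0.33, SE 0.09, adjusted p = 0.027). Cell type markers differed between the sexes at Day 3 as well. Of the proximal tubule markers 4 of 12 were called higher in males (median log2 difference 0.40), and 4 of 4 collecting duct (-0.51), 3 of 4 thick ascending limb (-0.67), 3 of 4 adipocyte (-1.02), 2 of 5 injured tubule (-1.26) and 4 of 6 tested hepatocyte markers (-3.38) were called lower, while 1 of 9 leukocyte markers was called higher and no podocyte marker was called. The proximal tubule sums were 9530 to 13722 CPM in males and 5342 to 12163 in females, and the part of these marker differences in the 3 calls was not tested. The sexes did not overlap in these 3 genes at Day 3, and Acmsd, Qprt, Nampt, Kmo, Naprt and Nmnat1 overlapped. Over all 16673 genes tested, 2063 lay wholly higher in males and 2156 wholly lower. The Nadsyn1 call was lost without female Day 3 mouse 1 or 3 or male Day 3 mouse 2, 3 or 4 (edgeR adjusted p = 0.063 to 0.079), while those of Afmid and Haao held in all 8 such fits. Without the pair of libraries richest in hepatocyte transcripts these 3 remained called and Kmo was called higher in males as well (0.35, edgeR adjusted p = 0.0066). None of the 3 was called in 1 fit over the 8 groups (edgeR adjusted p = 0.59, 0.43 and 0.80 for Afmid, Haao and Nadsyn1). At Day 5, 6 of the 9 genes were called lower in males without the library labelled male Day 5 mouse 1 (Kmo, Afmid, Qprt, Nadsyn1, Haao and Naprt, log2 differences of -2.39 to -0.79). For that fit, too, the share of all genes called is not given here.

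The interaction of sex and day, which tests whether the response itself differed, called none of the 9 genes at Day 2 (0% of all genes, and 0 of the 9 at an unadjusted p under 0.05), Day 3 (0.0114% of all genes, 0 of the 9) or Day 5 (0.243% of all genes, 5 of the 9), and DESeq2 called none either. On simulated counts the Day 3 interaction test called 35 of 100 2-fold changes, so a missing call does not show equal responses. At Day 5, 5 were called without the library labelled male Day 5 mouse 1, namely Kmo, Acmsd, Afmid, Qprt and Haao, all with a lower male than female response (differences of -2.65 to -1.63 on the log2 scale). The share of all genes called without that library is not given here.

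The wider pathway was followed in 49 other genes in 6 lists. The numbers called higher and lower than Day 0 were 2 and 1 of 44 tested at male Day 2, 4 and 7 of 43 at male Day 3, 0 and 4 of 43 at male Day 5, 2 and 0 of 44 at female Day 2, 2 and 1 of 47 at female Day 3, and 1 and 0 of 46 at female Day 5. Over all genes tested the shares called higher and lower were 1.81% and 1.35%, 11.4% and 13.1%, 8.98% and 10.2%, 0.774% and 1.16%, 1.26% and 4.28%, and 0.185% and 0.0738% in the same order, so the counts at male Day 3 and the lower count at male Day 5 are near what all genes gave. Of the enzymes that open tryptophan, Tdo2 and Ido1 were near 0 outside the libraries with hepatocyte transcripts. Tdo2, the liver enzyme, held 1800 counts in female Day 0 mouse 2 and 152 in female Day 3 mouse 2, the libraries richest in hepatocyte transcripts, and 0 to 44 counts in the other 30. Ido1, its interferon-inducible counterpart, was at 0 to 38 counts, while Ido2, a related enzyme, was at 0.46 to 11.9 CPM. Aadat, which diverts kynurenine to kynurenic acid, was lower in male than in female mice at Day 2 (164 to 230 against 535 to 1052 CPM, log2 difference -1.87, SE 0.24, edgeR adjusted p = 0.0034) and at Day 3 (-1.79, SE 0.28, adjusted p = 0.0045). Its means were lower in males at Day 0 and Day 5 too (-1.53, SE 0.54, and -1.20, SE 0.77), without a call (edgeR adjusted p = 0.43 and 0.40) and with overlapping mice, and it had no edgeR or DESeq2 call against Day 0 in either sex.

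Among other NAD enzymes, Pnp, a purine nucleoside phosphorylase that also splits nicotinamide riboside, was the only gene called lower in all 3 male comparisons besides Acmsd among the genes of the pathway and its lists. It read 41.2 to 92.5 CPM in male Day 0 mice, 30.4 to 37.1 at Day 2, 29.4 to 37.5 at Day 3 and 16.1 to 30.3 at Day 5 (log2 fold change -1.06, -1.08 and -1.41, edgeR adjusted p = 0.048, 0.017 and 0.015). The female log2 fold changes of Pnp were -0.95, -0.96 and -0.69, not called by edgeR (adjusted p = 0.086, 0.074 and 0.39). DESeq2 called the female Day 3 fall (adjusted p = 0.034). Nadk2 (mitochondrial NAD kinase) had no edgeR or DESeq2 call against Day 0, nor did Slc22a13, a transporter of nicotinate, or Ppargc1a, a coactivator known to raise NAD synthesis in the kidney. Nmrk1 (nicotinamide riboside kinase) had no edgeR call, and at male Day 5 (-1.11, SE 0.36, edgeR adjusted p = 0.055) DESeq2 called it lower (adjusted p = 0.024). Nnmt, which methylates nicotinamide, read 3.30 to 10.5 CPM in male Day 0 mice and 1.89 to 2.41 at Day 3 (-1.68, SE 0.43, edgeR adjusted p = 0.027), and its female log2 fold changes of -2.14 and -2.12 at Day 2 and Day 3 were called by DESeq2 (adjusted p = 0.0036 and 0.0047) and not by edgeR (0.064 and 0.062). Kynurenine metabolites are ligands of the aryl hydrocarbon receptor, and in the list of this receptor and its targets 1 of 7 tested genes was called higher at male Day 2, 2 higher and 1 lower of 6 at male Day 3, none of 6 at male Day 5, and 2, 1 and 1 of 7 higher at female Day 2, Day 3 and Day 5, to be read against the shares over all genes given above and the small size of the list. Ahr, the receptor gene, was called higher by edgeR at male Day 3 (4.49 to 5.85 CPM at Day 0, 7.27 to 9.08 at Day 3, log2 fold change 0.65, edgeR adjusted p = 0.023), and by DESeq2 also at male Day 2 and Day 5 (0.60 and 1.06, DESeq2 adjusted p = 0.018 and 0.038, edgeR adjusted p = 0.085 and 0.067). Its target Cyp1b1 rose in both sexes at Day 2 and Day 3, from 17.7 to 23.9 CPM in male and 15.1 to 23.5 CPM in female Day 0 mice to 35.3 to 48.2 and 30.9 to 46.2 CPM at Day 2 (log2 fold change 0.98 and 1.02, edgeR adjusted p = 0.030 and 0.0499), while another target, Cyp1a1, was called lower at male Day 3 (-1.82, adjusted p = 0.027). Nqo1, a quinone reductase gene and also a target, was called higher in female mice at Day 2 and Day 5 (from 19.8 to 35.7 CPM at Day 0 to 73.6 to 112 and 59.5 to 115 CPM, log2 fold change 1.57 and 1.67, edgeR adjusted p = 0.019 and 0.038). Its female Day 3 value was 1.39 (edgeR adjusted p = 0.051, DESeq2 0.0034), and its male values at Day 2 and Day 3 were 0.91 and 0.67 (edgeR adjusted p = 0.11 and 0.058, DESeq2 0.044 and 0.026). Arnt, Ahrr and Tiparp had no edgeR call against Day 0, while DESeq2 called Arnt at male Day 3 (0.91, adjusted p = 0.040) and Ahrr at male Day 2 (2.37, adjusted p = 0.049).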

How the data were processed

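The authors sequenced whole-kidney RNA of 32 mice and deposited a table of raw counts (54532 genes) and a table of FPKM values. The positions given there equal those of GENCODE M21 on GRCm38 for 53395 of 54305 genes matched, and the submitters' processing notes name GRCm39, HTSeq and DESeq2. The aligner, versions, annotation release and strandedness are not given in the sources used here.

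Each library was 1 mouse. The edgeR 4.0.16 quasi-likelihood test (R 4.3.3; TMM, filterByExpr, robust) was fitted on the groups compared, and a gene was called at a Benjamini-Hochberg adjusted p under 0.05 over all genes tested. The test was checked on simulated counts with 1 fixed spread and no outlying libraries, unlike the real groups. At male Day 3 against Day 0 it called 84 of 100 2-fold and 100 of 100 4-fold changes. In the Day 3 interaction it called 35 of 100 and 100 of 100. CPM used TMM factors over the 32 libraries. FPKM served for levels between genes. The Acmsd to Qprt ratio used counts plus 0.5 and a two-sided exact permutation test. Alternatives were DESeq2 1.42.0, its size factors, no filter, 1 fit over 8 groups, a replicate block, a fold threshold (absolute log2 value over 1.5), no mitochondrial genes and each mouse left out. The genes named were the 10 members, the pathway genes Tdo2, Ido1, Ido2, Nnmt, Nmrk1, Nadk2, Aadat, Slc22a13, Ppargc1a and Ahr, list genes called in 3 or more of 6 comparisons with Day 0, and the 5 genes nearest to Kynu. Cyp1a1, Nqo1, Aqp2 and Atp6v1g3 were named after their values were seen. The members and lists were chosen with earlier results of these data known. The marker lists held proximal tubule, thick limb, collecting duct, podocyte, leukocyte, hepatocyte, adipocyte and injured tubule genes. The promoter of Acmsd is not reported here.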

Additional observations from a re-analysis of the deposited data

Results flagged for a closer look

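In a group of 4 mice, a library whose gap to the next exceeds Dixon's critical share of the group's range was looked at again, and 72 groups of the 9 tested genes were examined, of which chance alone marks about 1 in 20. The library labelled male Day 5 mouse 1 was the highest of its group in Kmo (89.9 CPM) and Qprt (57.0 CPM). Afmid was high in female Day 0 mouse 4 (21.1 CPM) and in female Day 5 mouse 4 (21.4 CPM), and Naprt in female Day 2 mouse 1 (93.9 CPM).

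Nadsyn1 lay on opposite sides of Day 0 at Day 5, with all 4 males below and all 4 females above the Day 0 mean of their sex, a difference in response of -1.25 on the log2 scale that the edgeR interaction test did not call (adjusted p = 0.29). None of its comparisons with Day 0 was called, and Day 5 overlapped with Day 0 in both sexes (6.65 to 18.6 against 7.70 to 25.2 CPM in males, 19.6 to 31.5 against 7.96 to 23.7 CPM in females). The female side rests on the low female Day 0 mouse 3, since without it the Day 0 mean was 20.5 CPM with 2 Day 5 females above it and 2 below, while all 4 males stayed below theirs.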

How the results depend on the processing

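The called genes and the Acmsd to Qprt ratio kept their direction under every alternative run; the male Day 5 change of Kynu alone was -0.10 without the library labelled male Day 5 mouse 1. The number of the 9 tested genes called moved as follows. Shares of all genes called under these alternatives, or with mice left out, are not given here, so the counts are not set against all genes. With 1 fit over 8 groups it was 2 at male Day 3, 8 at male Day 5, 3 at female Day 2, 4 at female Day 3, 2 at female Day 5, 0 between the sexes at Day 3, 5 between the sexes at Day 5 and 1 in the Day 5 interaction. The DESeq2 Wald test called 3 at male Day 2, 5 at male Day 5, 1 at female Day 2, 4 at female Day 3, 1 at female Day 5 and 3 between the sexes at Day 5. Without a filter 1 was called at female Day 2. The single female Day 3 call went to 0 with DESeq2 size factors, without mitochondrial genes and, chosen after seeing the data, without the 2 libraries richest in hepatocyte transcripts. With an absolute log2 fold change over 1.5, 1 was called at male Day 3, 0 at female Day 3 and 0 between the sexes at Day 3.

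By the rule that all 4 numbers correlate above 0.1, mouse numbers did not pair the samples in any comparison (correlations of deviations from -0.42 to 0.48), although between the sexes at Day 0 mice 1, 3 and 4 correlated at 0.27, 0.45 and 0.48 and mouse 2 at -0.08. A replicate block gave 0 at male Day 2, 1 at male Day 3, 5 at male Day 5 and 0 at female Day 3.

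Leaving out each mouse in turn gave 0 to 2 calls at male Day 2, 1 to 5 at male Day 3, 1 to 7 at male Day 5, 0 to 4 at female Day 2, 0 to 5 at female Day 3, 0 to 3 at female Day 5, 2 to 4 between the sexes at Day 3, 0 to 6 at Day 5 and 0 to 5 in the Day 5 interaction. The Kynu response in males over females ranged from 0.32 to 2.30 at Day 5. Kynu at male Day 5 rests on 11 to 442 counts per library, which limits its precision.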
